A study of Mus musculus with 6 samples.

Results

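The 34 genes described here encode the enzymes of glycolysis, the proteins that turn pyruvate into lactate or pass it into mitochondria, and 3 genes of the response to low oxygen. They were chosen by symbol, and all 34 were found among the 34745 genes of the deposited table and among the 14929 genes that passed the expression filter. The list held 4 pyruvate dehydrogenase kinases, 16 genes of the glycolytic steps, 5 lactate dehydrogenase and carrier genes, 6 genes of mitochondrial pyruvate entry and the pyruvate dehydrogenase complex, and 3 hypoxia response genes. RNA came from the medial ganglionic eminence (MGE), a source of cortical interneurons in the ventral forebrain, of mouse embryos at embryonic day 12.5. There were 3 wild type libraries, taken from littermate controls, and 3 Sp9 null (Sp9-/-) libraries, and both genotypes had a mixed background of C57BL/6J, 129S6 and CD1. The labels do not say how the null allele was made or how many embryos or litters each library holds, so each p-value reflects only how far these samples spread, which may be technical.

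Glycolysis splits glucose to pyruvate in the cytosol. Pyruvate is then either reduced to lactate by lactate dehydrogenase or carried into mitochondria, where the pyruvate dehydrogenase complex turns it into acetyl-CoA. The pyruvate dehydrogenase kinases phosphorylate that complex and switch it off, and so set the balance between the 2 fates. Dividing neural progenitors are known for high glycolytic activity, and neurons rely more on oxidation of pyruvate in mitochondria. Under low oxygen the transcription factor subunit encoded by Hif1a is stabilised as a protein, and it binds sites with the core ACGTG or GCGTG near many glycolytic genes, Pdk1 among them.

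The libraries held 6826447 to 10979280 counts. Sp9 checked the labels: wild type replicates 1, 2 and 3 held 203, 247 and 189 CPM of it (CPM are counts per 1000000 counts of a library), and null replicates 1, 2 and 3 held 13.0, 10.6 and 12.5. Of the genes that define the MGE, Nkx2-1 was at 799.7 to 926.9 CPM for wild type and 894.9 to 944.7 for null libraries, and Lhx6 at 481.7 to 580.1 and 336.3 to 406.6, so both were present in all 6. With the replicate number as a block Lhx6 fell by 0.46 on the log2 scale (edgeR adjusted p = 6.01e-06). Dlx2, another ventral forebrain marker, rose by 0.39 with the block (adjusted p = 3.91e-05), and neither gene passed without it. Dlx2 starts 0.33 Mb from the start of Pdk1 and is also among the neighbours of Pdk1 described below. Mitochondrial transcripts took 2.20% to 2.28% of counts in wild type and 2.32%, 3.43% and 3.41% in null replicates 1, 2 and 3. Sums over 7 microglial markers were 30.4 to 34.4 CPM for wild type and 7.85 to 12.7 for null libraries, without overlap, and 6 of the 7 fell in edgeR with the replicate number as a block (0 without it). Sums of 8 erythroid markers (791 to 1206 and 811 to 1242 CPM), 8 endothelial and pericyte markers (159.9 to 189 and 152 to 181 CPM), 6 mesenchymal markers (18.2 to 24.7 and 23.7 to 25.9 CPM) and 8 immediate early and stress genes (84.8 to 105 and 73.5 to 104 CPM) overlapped between genotypes, although 2 of the 8 erythroid genes, Hba-x and Hbb-bh1, rose with the block. Those of 6 cortical glutamatergic markers spanned 1.37 to 22.9 CPM for wild type and 1.27 to 46.1 for null libraries, and were lowest in replicate 2 of each genotype. Of the 2 tested genes of this list, Tbr1 rose by 0.81 with the block (edgeR adjusted p = 0.0238, and 0.977 without it). In replicate 2 Tbr1 was lower in the null library, at 0.09 against 0.64 CPM. No marker of these lists was at 0 in all 6 libraries. In whole tissue, fewer cells of a type and less RNA per cell cannot be told apart.

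The promoter sequences of Pdk1, the kinase gene that rose in the null libraries with the replicate block, and of its paralogue Pdk2, which did not pass, are shown so that the bases before their start sites can be set side by side. Each is the 250 bases before the RefSeq transcription start on GRCm38.p6, read on the gene's strand, with the hypoxia response element core (ACGTG or GCGTG on either strand) in capitals. Pdk1 lies on the plus strand, at chr2:71872974-71873223, and Pdk2 on the minus strand, at chr11:95041372-95041621.
Pdk1: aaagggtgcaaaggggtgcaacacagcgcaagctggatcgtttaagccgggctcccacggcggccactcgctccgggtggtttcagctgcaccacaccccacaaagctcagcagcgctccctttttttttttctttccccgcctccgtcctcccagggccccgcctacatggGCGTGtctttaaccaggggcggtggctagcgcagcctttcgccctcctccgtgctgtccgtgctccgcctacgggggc
Pdk2: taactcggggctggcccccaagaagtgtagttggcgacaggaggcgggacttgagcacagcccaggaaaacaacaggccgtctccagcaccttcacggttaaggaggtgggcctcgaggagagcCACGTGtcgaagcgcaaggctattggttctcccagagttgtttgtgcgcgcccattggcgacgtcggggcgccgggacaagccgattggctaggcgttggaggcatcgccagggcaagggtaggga

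The Pdk1 window held 1 GCGTG, starting 78 bases before the start site, and 1 GC box (GGGCGG), starting 62 bases before it. GC boxes are the sites that zinc finger factors of the Sp family are known to bind. In the Pdk2 window ACGTG was found on both strands, since the matches overlap in a palindrome, and there was no GC box. The windows of the other paralogues, which did not pass the test either, also held such letters: that of Pdk3 held 4 hypoxia cores and 1 GC box, starting 223 bases before the start, and that of Pdk4 held 1 GCGTG and no GC box. Either hypoxia core was present in the windows of 24 of the 32 genes of the list with a RefSeq window, and in 38.6% of all 32851 windows of this length. The GC box, counted on either strand and added after values were seen, was present in 19 of the 32 and in 32.7% of all windows. The 32 hold 1 window per expressed gene, the nearest to its deposited start, while all windows were not chosen by expression or start. The shares are therefore not like for like, and the difference was not tested. All motifs are matches of letters, and no binding was measured. Slc2a3 and Pdp1 had no window in the table used.

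Pdk1 was the 1 gene of the list whose level differed several-fold between the genotypes. With genotype as the only term, 0 of the 34 genes were called (edgeR quasi-likelihood test, Benjamini-Hochberg adjusted p under 0.05 over all genes), against 22 of 14929 genes (0.147%, of which 0.0469% were higher and 0.10% lower in the null libraries). An unadjusted p under 0.05 was reached by 3 of the 34, Pdk1, Ldhb and Hif1a, and by 882 of the 14929 genes. DESeq2 called 1 of them, Pdk1, and limma on log2 FPKM called 0. With the replicate number as a block, 4 rose and 0 fell in the null libraries (edgeR), where 2.22% of all genes were higher and 1.78% lower. The 4 were Pdk1, Ldhb, Hif1a and Pfkfb3. The block rests on correlated deviations of libraries that share a number, not on a pairing stated in the labels. Those deviations do not tell numbers 1 and 3 apart.

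The median log2 fold change (Sp9 null over wild type) of the other 33 genes was -0.016, beside -0.005 for all genes tested, and their values ran from -0.37 to 0.28. None of the 33 differed by more than 0.5 on the log2 scale, which 6.35% of all genes tested did. Null and wild type CPM ranges did not overlap for 6 of the 34, of which Pdk1, Gpi1, Ldhb and Hif1a were higher and Pdk4 and Mpc1 lower in the null libraries. Such separation was found for 13.0% of all genes tested, 4.95% higher and 8.06% lower. With TMM scaling the ranges of Mpc1 overlapped, and 5 of the 34 were separated, against 12.6% of all genes (5.87% higher, 6.73% lower).

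**Figure D1:**
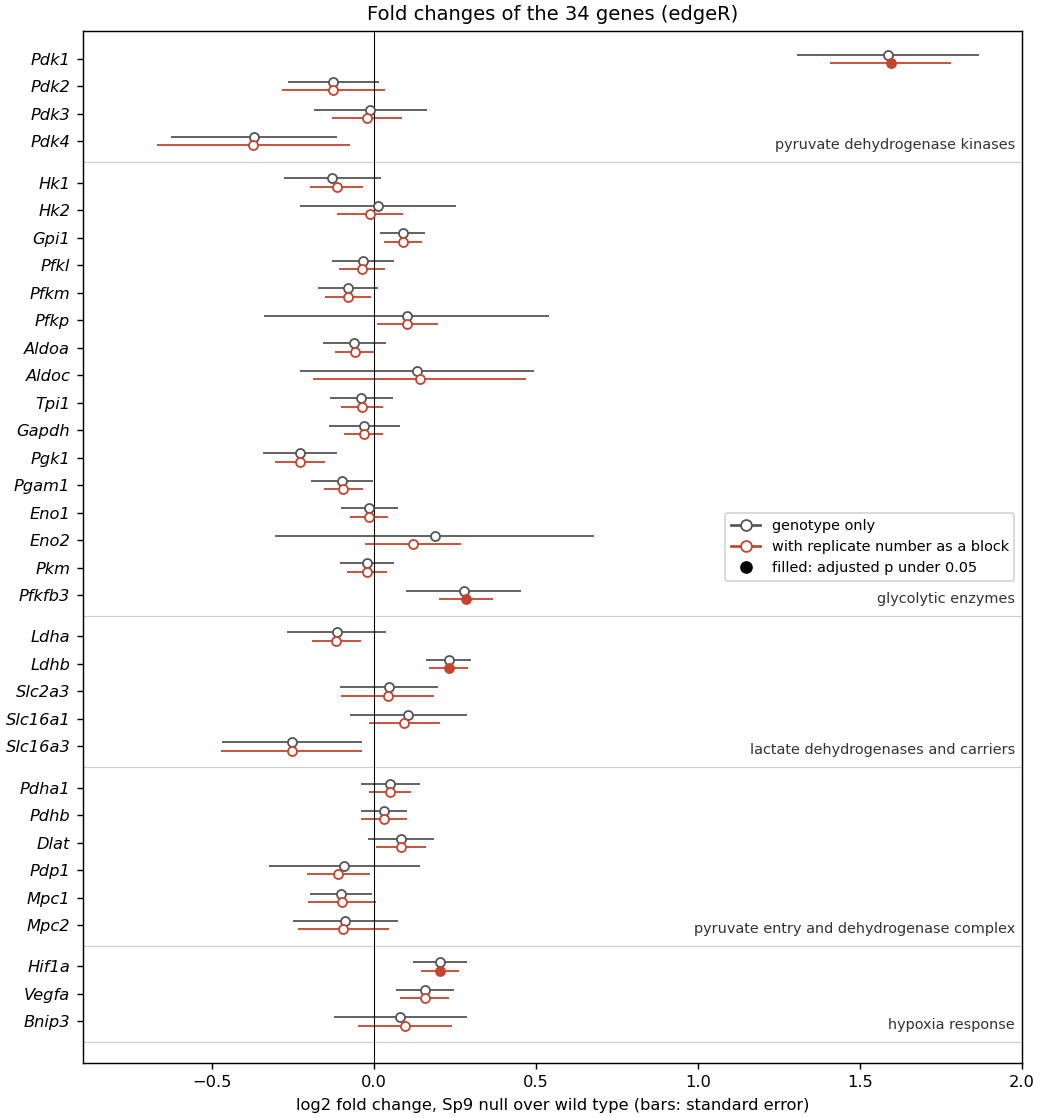
Log2 fold changes of the 34 genes (x axis; Sp9 null over wild type), grouped by role, from edgeR with genotype only (grey) and with the replicate number as a block (red). Bars are standard errors and filled points passed an adjusted p of 0.05; Pdk1 lies at 1.59 and 1.60, and the other 33 between -0.37 and 0.28.

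Pdk1 (ENSMUSG00000006494, chromosome 2, 71873224 to 71903858) encodes the kinase isoform known as a target of hypoxia-inducible factor. Its counts in replicates 1, 2 and 3 were 34, 41 and 67 for wild type, against 103, 118 and 151 for Sp9 null. These are 3.57, 3.76 and 6.76 CPM for wild type and 15.1, 10.7 and 16.0 for null libraries. All 3 null values lay above all 3 wild type values, and wild type replicate 3 and null replicate 2 came nearest to each other. Mean CPM was 4.69 ± 1.79 for wild type and 13.9 ± 2.81 for null (SD, n = 3 each). This is a 3.0-fold difference, 1.59 on the log2 scale (SE 0.28), with edgeR adjusted p = 0.140 and unadjusted p = 0.000490. With the block the log2 fold change was 1.60 (SE 0.19) and Pdk1 rose, with adjusted p = 2.00e-07. DESeq2 without the block gave adjusted p = 0.000388. On log2 CPM an exact permutation test (two-sided) could go no lower than p = 0.1, and gave that value. The adjusted p depended on the tool and the block, while the fold change lay between 1.40 and 1.94 in every edgeR or DESeq2 fit. Without wild type replicate 3, whose level was the highest of its genotype, it was 1.94 with adjusted p = 0.0957. In total 62 of the 14929 genes tested had a larger absolute log2 fold change.

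The 3 paralogues of Pdk1 did not follow it. Pdk3 (chromosome X, 93764607 to 93832201) was the kinase gene with the highest level, at 9.89 FPKM in wild type and 9.60 FPKM in null libraries (fragments per kilobase of gene, scaled to the library total). Its CPM was 27.1, 30.9 and 32.2 for wild type and 23.6, 36.4 and 27.5 for null, so the null values surrounded the wild type ones, with a log2 fold change of -0.012 (SE 0.17). Pdk2 (chromosome 11, 95026258 to 95041354), a widely expressed isoform, was at 11.7, 11.2 and 10.8 CPM in wild type and 10.8, 9.38 and 10.3 CPM in null replicates, with a log2 fold change of -0.13 (SE 0.14). Pdk4 (chromosome 6, 5483351 to 5496309), the isoform known for its response to fasting, was at 3.15, 3.02 and 3.63 CPM in wild type and 2.93, 2.55 and 2.01 CPM in null replicates. Its null values all lay below the wild type ones, on 19 to 36 counts a library, with a log2 fold change of -0.37 (SE 0.26) and edgeR adjusted p = 0.903 (0.563 with the block).

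The log2 ratio of Pdk1 to Pdk2, Pdk3 and Pdk4 (FPKM) was higher in the null libraries by 1.76, 1.68 and 2.01. Each of the 3 comparisons gave p = 0.1 in an exact two-sided permutation test, the smallest possible, and 0.1 after Benjamini-Hochberg adjustment over the 3. Pdk1 made up 2.42%, 2.36% and 4.02% of the summed kinase FPKM in wild type and 10.6%, 5.95% and 10.4% in null replicates 1, 2 and 3. Pdk3 held 70.6% ± 1.89 in wild type and 67.7% ± 6.81 in null libraries (SD, n = 3 each). The summed kinase level was 14.0 ± 0.93 FPKM in wild type and 14.1 ± 1.74 FPKM in null libraries. In mean FPKM Pdk1 thus went from the lowest to the third of the 4 kinases, above Pdk4. In mean CPM, which is not divided by length, Pdk1 was above Pdk4 in both genotypes. The values were 4.69 against 3.27 in wild type and 13.95 against 2.50 in null libraries. The family sum in FPKM differed by less than its spread between libraries.

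**Figure D2:**
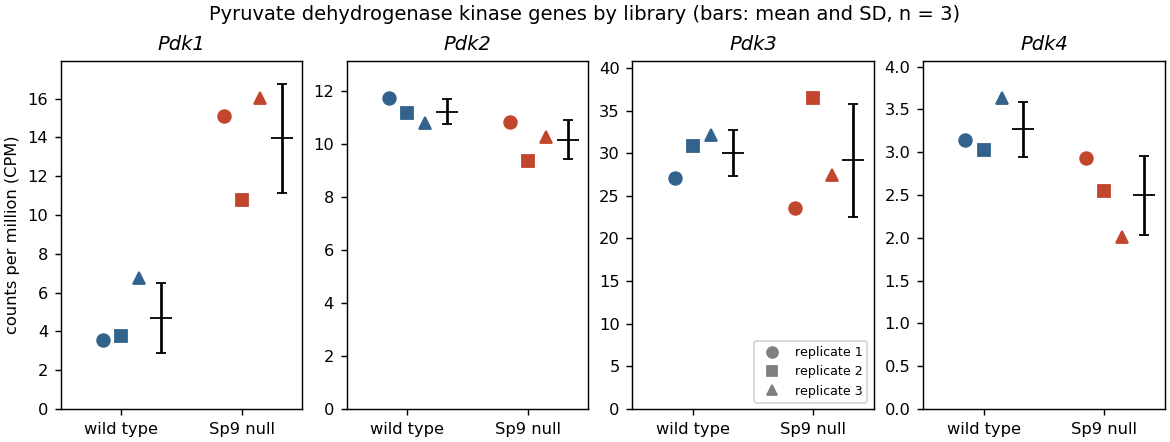
CPM of Pdk1, Pdk2, Pdk3 and Pdk4 (y axes from 0, 1 scale per gene) in the 3 wild type (blue) and 3 Sp9 null (red) libraries, with the replicate number as the symbol and mean ± SD as bars. The null values of Pdk1 (10.7 to 16.0) lie above its wild type values (3.57 to 6.76), and those of Pdk2 and Pdk3 overlap.

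Pdk1 starts 1.40 Mb from the start of Sp9 on chromosome 2. Of the other 33 genes only Pfkfb3 lies on that chromosome, with its start at 11471433. Within 1 Mb of the start of Pdk1 there were 14 other tested genes. Without the block 2 of them were called, Metap1d and Dlx1 (0.147% of all genes were), and with it 6 were called, Dcaf17, Metap1d, Dlx1as, Dlx1, Dlx2 and Zak, where 4.0% of all genes were called. All 6 were higher in the null libraries. Null and wild type CPM ranges were separate for 10 of the 14, with 9 higher and Slc25a12, a mitochondrial aspartate-glutamate carrier gene, lower. Over all genes tested 4.95% were separate and higher, and 8.06% separate and lower.

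Metap1d, a mitochondrial methionine aminopeptidase gene at 0.42 Mb from Pdk1, had the nearest fold change to it among the called neighbours. It was at 39.3, 42.9 and 34.7 CPM for wild type and 99.8, 104 and 101 for null replicates, well apart, and rose by 1.41 (SE 0.08) with the block. Dlx1, a homeobox gene of interneuron development, rose by 0.69 (SE 0.06) from the far higher level of 923 ± 62.6 CPM (SD, n = 3). Zak, a stress-activated kinase gene at 0.41 Mb on the side of Sp9, was at 19.9, 20.2 and 18.1 CPM in wild type and 39.6, 34.7 and 24.2 CPM in null replicates, and rose by 0.76 (SE 0.12, blocked edgeR adjusted p = 3.36e-05). The immediate neighbours did not pass. Itga6, an integrin gene at 0.13 Mb, stood at 0.23 (SE 0.08, blocked edgeR adjusted p = 0.112) and Rapgef4, an exchange factor gene at 0.11 Mb, at 0.58 (SE 0.26, adjusted p = 0.224). Cdca7, a cell cycle gene at 0.60 Mb and the gene tested nearest to Sp9 in this window, was at 0.016 (SE 0.06). Cybrd1, at 0.76 Mb and with only 2 to 13 counts a library, stood at 1.54 (SE 0.52, blocked edgeR adjusted p = 0.0911). Mettl8, Dync1i2 and Hat1 were at 0.41 (SE 0.13), 0.19 (SE 0.06) and 0.023 (SE 0.07), and did not pass either. Fold changes were thus uneven along the segment. Dcaf17 lost its blocked call without replicate 2 (edgeR adjusted p = 0.10) and in DESeq2 with the block (0.141), and the other 5 kept theirs in edgeR with each replicate number left out in turn. Without the block, the call of Metap1d was lost without wild type replicate 1, and that of Dlx1 without any 1 library other than null replicate 2. Dlx1as overlaps Metap1d and Dlx1, and strand is not stated, so reads of these may be shared. A difference carried with the chromosome segment around the null allele and a difference that follows loss of Sp9 cannot be told apart in this design.

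**Figure D3:**
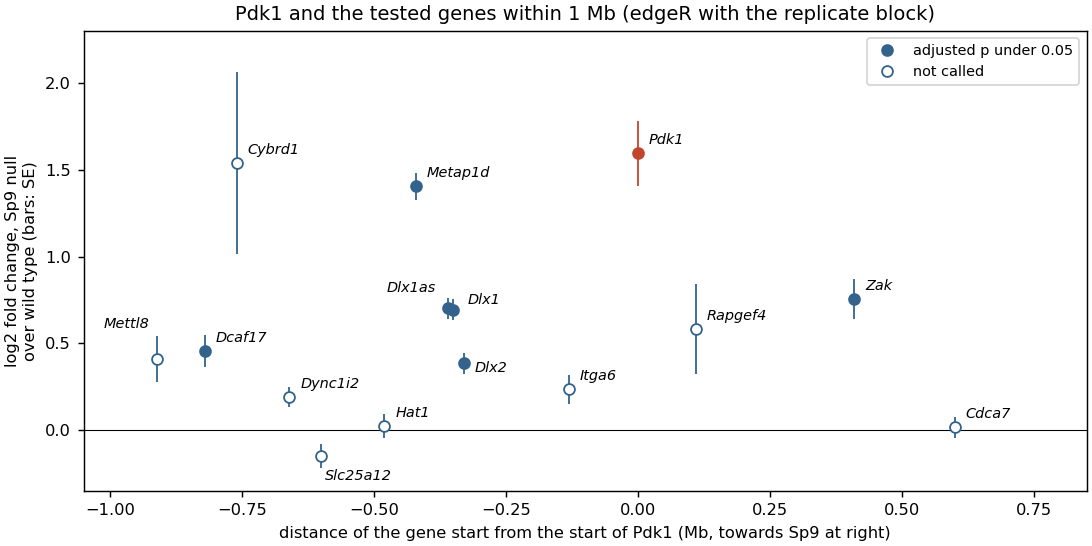
Log2 fold change with SE (y axis; edgeR with the replicate block) of Pdk1 (red) and the 14 other tested genes within 1 Mb (blue), by distance of their start from that of Pdk1 in Mb (x axis). Filled points passed an adjusted p of 0.05; they are Pdk1 and 6 neighbours, all above 0, with genes near 0 between and beyond them.

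Genes of the glycolytic steps were expressed at very different levels per length and at like levels in both genotypes. Of the 16, 0 were called without the block (0 also had an unadjusted p under 0.05; DESeq2 and limma called 0), and with it Pfkfb3 rose and 0 fell. Pkm, the pyruvate kinase of the last step, was the highest of all 34 in FPKM. It was at 510 ± 19.2 FPKM in wild type and 495 ± 29.8 FPKM in null libraries (SD, n = 3 each). Its CPM was 1301, 1384 and 1294 in wild type and 1327, 1337 and 1198 in null replicates, overlapping, with a log2 fold change of -0.022 (SE 0.08). Gapdh, which oxidises glyceraldehyde phosphate, followed at 188 ± 16.8 and 181 ± 17.1 FPKM, with a log2 fold change of -0.031 (SE 0.11). In CPM Gapdh was the higher, at means of 1625 and 1566 against 1326 and 1288 for Pkm. Pgam1, the phosphoglycerate mutase, was at 160.0 and 147 FPKM, and Pgk1, a phosphoglycerate kinase, at 77.4 and 65.1 FPKM.

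Where 1 isozyme held most of the FPKM summed over its listed isozymes in wild type, it also did in null libraries. Aldoa held 98.3% ± 0.65 of the summed FPKM of Aldoa and Aldoc in wild type and 98.0% ± 0.70 in null libraries. Eno1 held 96.6% ± 1.23 and 96.1% ± 2.11 of that of Eno1 and Eno2 (SD, n = 3 each). Eno1b, an enolase gene outside the list, was at 50.47 and 44.08 FPKM, above Eno1 at 34.95 and 34.09 FPKM. The order was reversed in mean CPM, which is not divided by length. There Eno1b was at 88.7 and 77.4 and Eno1 at 274.8 and 268 in wild type and null libraries. Of the 3 phosphofructokinase genes Pfkm held 56.7% ± 2.06 and 55.7% ± 4.21. Hk1 and Hk2, the hexokinases of the first step, shared their sum about evenly, with Hk1 at 48.0% ± 8.97 and 46.5% ± 10.2. Gpi1, glucose phosphate isomerase, was separated by genotype although the difference was small, at 203.8, 207.0 and 209.7 CPM in wild type and 213.9, 224.1 and 211.5 CPM in null replicates. It differed by 0.09 on the log2 scale (SE 0.07, edgeR adjusted p = 0.920, and 0.470 with the block).

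The other genes of these steps overlapped between genotypes. Hk1 was at 65.2, 45.8 and 65.1 CPM for wild type and 56.7, 46.1 and 56.1 for null replicates 1, 2 and 3, with a log2 fold change of -0.13 (SE 0.15). Hk2, the inducible hexokinase, was at 32.9, 42.0 and 30.8 CPM for wild type and 37.6, 43.9 and 23.3 for null replicates, with 0.011 (SE 0.24). The null values of Hk2 thus spanned more than the whole wild type range. The phosphofructokinase genes Pfkl, Pfkm and Pfkp had log2 fold changes of -0.034 (SE 0.10), -0.08 (SE 0.09) and 0.10 (SE 0.44). Aldoa, the main aldolase, was at 143.5, 178.4 and 158.8 CPM for wild type and 149.4, 157.7 and 146.5 for null replicates, with -0.06 (SE 0.10). Aldoc, the brain aldolase that is known from astrocytes and Purkinje cells, was low, with 15 to 37 counts a library, at 1.71 to 3.36 CPM for wild type and 2.20 to 3.92 for null libraries, and its 0.13 (SE 0.36) is imprecise. Tpi1, triose phosphate isomerase, was at 135.4, 166.2 and 137.6 CPM for wild type and 146.5, 141.4 and 133.4 for null replicates, with -0.04 (SE 0.10). Eno1, the higher listed enolase gene, was at 254.6, 297.8 and 272.0 CPM for wild type and 285.7, 271.2 and 247.2 for null replicates. Its log2 fold change was -0.016 (SE 0.09). For Aldoa, Tpi1 and Eno1 alike, the highest of the 6 values was wild type replicate 2.

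Pfkfb3 makes fructose 2,6-bisphosphate, which activates phosphofructokinase. It was at 61.6, 41.3 and 52.6 CPM in wild type and 64.9, 49.5 and 71.5 CPM in null replicates 1, 2 and 3. The genotypes overlapped, but within each replicate number the null library was higher, by 0.08, 0.26 and 0.44 on the log2 scale. Without the block its log2 fold change of 0.28 did not pass (SE 0.18, edgeR adjusted p = 0.897), and with it Pfkfb3 rose by 0.28 (SE 0.08, adjusted p = 0.0465). The blocked call was lost without replicate 2 (adjusted p = 0.384), without replicate 3 (0.561) and by DESeq2 with the block (0.691).

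Lactate dehydrogenase is built from subunits of Ldha, which favours lactate formation, and Ldhb, which favours its oxidation. Ldhb (chromosome 6, 142490249 to 142507957) was at 160, 157 and 156 CPM in wild type and 182, 188 and 177 CPM in null replicates. Its 3 null values all lay above the narrow wild type range. Mean CPM was 158 ± 2.38 for wild type and 182 ± 5.48 for null (SD, n = 3). With the block Ldhb rose by 0.23 on the log2 scale (SE 0.06, edgeR adjusted p = 0.0212). Without the block the same fold change had SE 0.07 and adjusted p = 0.635. The blocked call was lost without replicate 2 (0.352), without replicate 3 (0.229) and by DESeq2 with the block (0.303).

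Ldha did not pass, at 194, 270 and 215 CPM in wild type and 221, 227 and 171 CPM in null replicates, with a log2 fold change of -0.12 (SE 0.15). Ldhb held 65.8%, 57.6% and 62.8% of the summed FPKM of the 2 genes in wild type and 65.8%, 65.9% and 70.7% in null replicates, and the ranges met. The carriers were lower in level. The monocarboxylate transporter Slc16a1 was at 6.52 ± 0.99 and 6.93 ± 1.48 FPKM, the glucose transporter Slc2a3 at 1.24 ± 0.07 and 1.26 ± 0.19 FPKM, and the lactate exporter Slc16a3 at 0.71 ± 0.11 and 0.59 ± 0.11 FPKM in wild type and null libraries (SD, n = 3). Slc16a1 was at 26.6, 33.9 and 26.0 CPM for wild type and 35.4, 33.3 and 23.2 for null replicates, without a common direction. The log2 fold changes of the 3 were 0.11, 0.05 and -0.25, and 0 of the 3 were called in either edgeR fit.

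The genes of the complex that the kinases act on did not pass the test. Of the 6 genes of pyruvate entry and the dehydrogenase complex, 0 were called in either edgeR fit, by DESeq2 or by limma, and 0 had an unadjusted p under 0.05 in the edgeR fits. Their log2 fold changes ran from -0.10 to 0.08. Pdhb, a subunit of the first enzyme of the complex, had the highest FPKM of the 6. It was at 55.9 ± 1.31 FPKM in wild type and 56.2 ± 1.15 FPKM in null libraries (SD, n = 3). In CPM Pdhb was at 83.3, 84.8 and 81.0 in wild type and 82.6, 82.4 and 85.5 in null replicates, and the ranges overlapped. Mean CPM was higher for Pdha1, at 108.8 and 110.9 against 83.0 and 83.5 for Pdhb.

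Pdha1, which carries the serines that the kinases phosphorylate, was at 101.6, 117.6 and 107.1 CPM for wild type and 106.5, 119.0 and 107.1 for null replicates, a log2 fold change of 0.05 (SE 0.09). Dlat, the acetyltransferase core, was at 54.9, 64.3 and 56.2 CPM for wild type and 57.6, 64.8 and 60.3 for null replicates, with 0.08 (SE 0.10). Pdp1, the opposing phosphatase, was at 38.4, 30.0 and 43.5 CPM for wild type and 40.0, 23.0 and 40.8 for null replicates, with -0.09 (SE 0.23). All 3 overlapped between genotypes, and Pdp1 was lowest in both libraries numbered 2. Mpc1 and Mpc2 form the mitochondrial pyruvate carrier. Mpc1 was at 29.2, 27.4 and 29.7 CPM in wild type and 27.1, 26.8 and 25.3 CPM in null replicates, separate by a small margin, with a log2 fold change of -0.10 (SE 0.10). Mpc2 was at 13.2, 16.9 and 15.2 CPM for wild type and 13.9, 15.9 and 12.2 for null replicates, with -0.09 (SE 0.16), and overlapped.

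Of the hypoxia response genes, Hif1a (chromosome 12, 73901375 to 73947530) was at 212, 240 and 222 CPM in wild type and 242, 261 and 260 CPM in null replicates. The ranges were separate by a narrow margin, between wild type replicate 2 and null replicate 1. The mean was 224 ± 14.5 and 254 ± 10.7 CPM (SD, n = 3), and the log2 fold change 0.20 (SE 0.08, edgeR adjusted p = 0.818). With the block Hif1a rose by 0.20 (SE 0.06, adjusted p = 0.0348). That call was lost without replicate 2 (0.210), without replicate 3 (0.442) and by DESeq2 with the block (0.345). The antisense gene Gm15283 overlaps its exons, and strand is not stated.

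Vegfa, the angiogenic growth factor induced by low oxygen, was at 65.7, 64.3 and 59.7 CPM in wild type and 74.9, 70.1 and 63.5 CPM in null replicates, and its log2 fold change was 0.16 (SE 0.09; adjusted p in edgeR 0.897, and 0.274 with the block). It was higher in the null library of each number, and the genotypes overlapped. Bnip3, a mitophagy receptor and hypoxia target, was at 17.8, 11.8 and 17.2 CPM in wild type and 13.8, 15.3 and 19.5 CPM in null replicates, with no common direction and a log2 fold change of 0.08 (SE 0.20).

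Other genes of the same pathways were taken from 3 lists of 75 genes, of which 64 were tested. Without the block 0 of the 64 were called by edgeR, against 0.147% of all genes, and 4 had an unadjusted p under 0.05, against 882 of 14929. With the block 1 rose and 0 fell, against 2.22% and 1.78% of all genes, so these counts were near or below the background. The gene that rose was Ero1l, an oxidase of protein folding induced by low oxygen, at 42.2, 41.7 and 47.3 CPM in wild type and 55.7, 48.1 and 60.8 CPM in null replicates. Its log2 fold change with the block was 0.34 (SE 0.08, edgeR adjusted p = 0.0117), and the call was lost without replicate 2 (0.103), without replicate 3 (0.217) and by DESeq2 with the block (0.337).

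Of 20 tested glycolysis genes 0 rose and 0 fell in either fit, with a median log2 fold change of -0.07, and those highest in level were Eno1b, an enolase copy, Bsg, the chaperone of the lactate transporters, and the glucose transporter Slc2a1, at -0.18 (SE 0.13), -0.032 (SE 0.07) and 0.06 (SE 0.11). Of 14 pyruvate metabolism genes 0 passed either way, with a median of 0.029. Cs, citrate synthase, was the highest of these at 109.9 FPKM over the 6 libraries and had a log2 fold change of -0.023 (SE 0.08). Got2, an aspartate aminotransferase, and Acly, which makes cytosolic acetyl-CoA, were at -0.003 (SE 0.08) and 0.026 (SE 0.07). Of 30 hypoxia response genes the median was 0.018, with 15 values above and 15 below 0. CPM ranges were separate for 4 of the 30, with Ero1l higher and 3 lower in the null libraries. Over all genes tested 4.95% were separate and higher and 8.06% separate and lower. The 3 highest in FPKM of this list were Arnt2, a partner of the hypoxia-inducible factors, Cited2, a transcriptional coregulator, and Fam162a. Their log2 fold changes were -0.027 (SE 0.09), -0.024 (SE 0.10) and -0.019 (SE 0.19). Of these 64 genes, none differed by over 1 on the log2 scale, as Pdk1 did.

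Several of the 34 genes differed more between replicate numbers than between genotypes. In 13 of the 34, both libraries numbered 2 lay outside the range of the other 4, which was so for 37.7% of all genes tested, so this share was near the background. Eno2, the neuronal enolase, was at 9.89 and 6.92 CPM in wild type and null replicate 2 and at 16.6 to 24.2 CPM in the other libraries. Pfkp, a phosphofructokinase, was at 19.7 and 20.5 CPM there and at 38.9 to 50.4 CPM in the others. Hk1, Pfkfb3, Slc2a3 and Pdp1 were also lower, and Hk2, Gapdh, Pkm, Ldha, Pdha1, Dlat and Mpc2 higher, in both libraries numbered 2. For Eno2 and Pfkp the SE without the block, 0.49 and 0.44, fell to 0.15 and 0.09 with it.

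In 11 of the 34 genes the null library was higher than the wild type one for number 1 and lower for numbers 2 and 3, a pattern chosen after its values were seen and shown by 15.4% of all genes tested. They were Aldoa, Tpi1, Pgk1, Pgam1, Eno1, Pkm, Ldha, Slc16a1, Slc16a3, Pdp1 and Mpc2. The pattern was read from CPM without TMM scaling, whose factors were 1.0044 for wild type replicate 2 and 0.9758 for null replicate 2. For number 2, Slc16a1 and Pkm differed by only -0.024 and -0.050 on the log2 scale. Applying those factors to CPM would turn the sign for Slc16a1, so Slc16a1 holds the pattern only without scaling. It also relies on the replicate numbers as pairs, and numbers 1 and 3 are not told apart. Gapdh, which acts between Tpi1 and Pgk1, was lower in the null library of all 3 numbers. Pgk1 was at 208, 268 and 233 CPM in wild type and 220, 199 and 177 CPM in null replicates 1, 2 and 3. Over all 6 libraries its log2 fold change stood at -0.23 (SE 0.11, edgeR adjusted p = 0.889, and 0.124 with the block). In the blocked fit without replicate 1 Pgk1 was at -0.38, Ldha at -0.26 and Pgam1 at -0.18, and these 3 were called lower. That fit cannot test the pattern, because these genes were picked for number 1 going the other way. It called 1193 genes in total, and of the 34 it called 4 higher and 3 lower. Null replicates 2 and 3 were the libraries with 3.43% and 3.41% mitochondrial transcripts, against 2.32% in null replicate 1; the part of this in the pattern was not tested.

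**Figure D4:**
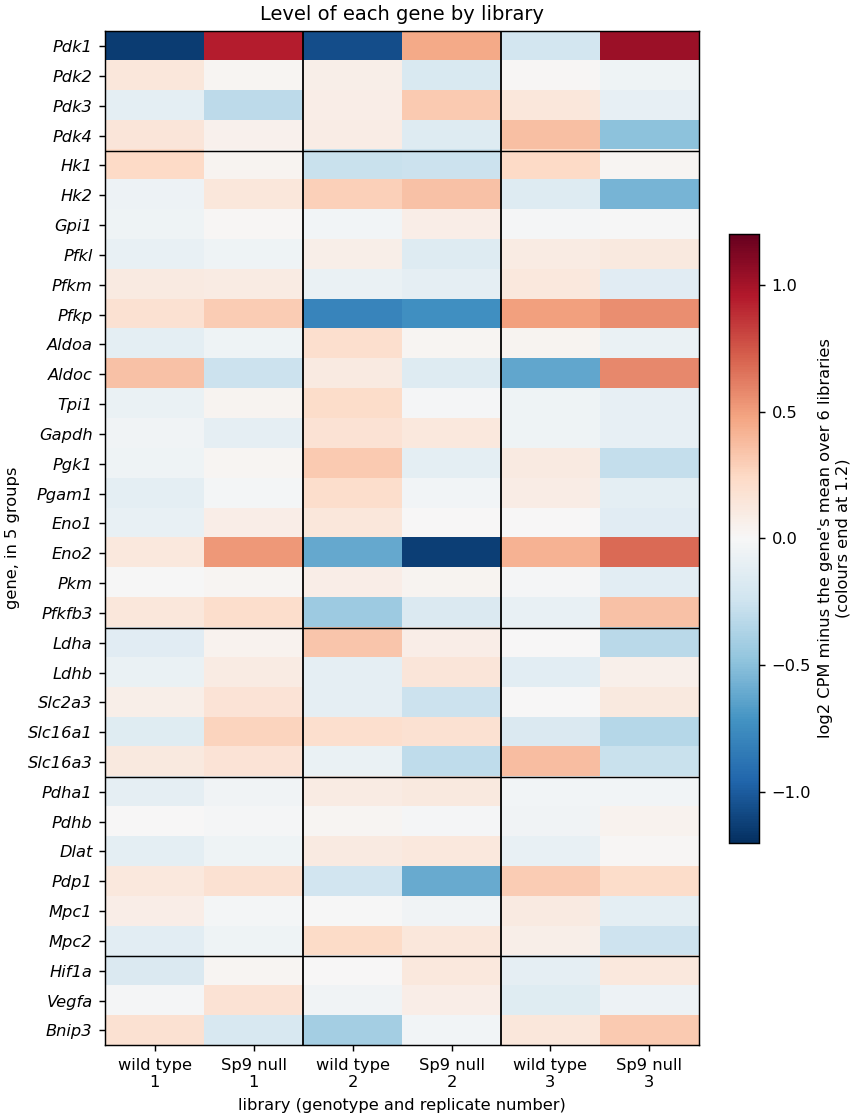
Level of each of the 34 genes (rows, in 5 groups by role) in the 6 libraries (columns, by replicate number), as log2 CPM minus the gene's mean over the libraries. Pdk1 alternates by genotype in all 3 numbers, while Pfkp and Eno2 are low in both libraries numbered 2 (19.7 and 20.5 CPM for Pfkp, 9.89 and 6.92 CPM for Eno2).

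How securely reads can be assigned differed between these genes. Of the distinct 50-base stretches in the annotated transcripts (GENCODE M21) of Pdk1, 0 of 8073 occurred in transcripts of another gene, and the same held for Pdk2 and Pdk3. For Pgk1 53.9% were shared, for Bnip3 47.2%, for Pgam1 36.2%, for Mpc1 26.3%, for Eno1 26.0%, for Pkm 25.8%, for Gapdh 25.1% and for Ldhb 21%, mostly with pseudogenes, copies or overlapping genes. How reads with several matches were counted was not given in the sources used here, so levels of these genes are less certain than those of the kinases.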

How the data were processed

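RNA-seq of 3 wild type and 3 Sp9 null MGE samples was analysed. Per the file headers, the authors deposited a raw read count and an FPKM value per gene and library. TopHat, Cufflinks 2.1.1 and the build GRCm38.p4 are listed in the submitters' processing notes, with no roles. The deposited FPKM values equalled the count over 1 length per gene and the library total for 21180 of 21180 genes counted in 2 or more libraries (relative tolerance 0.001). Ranks between genes in FPKM depend on these lengths. Strand is not stated.

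The test was edgeR 4.0.16 (R 4.3.3), by quasi-likelihood on the counts (TMM, default expression filter, robust, two-sided, called at adjusted p under 0.05). Standard errors are approximate, being |log2 fold change| divided by the root of F. CPM uses the library total. DESeq2 1.42.0 and limma 3.58.1 were alternatives. A floor of 3 counts equals 0.273 to 0.439 CPM and covers counting error only.

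Replicate numbers were taken to pair the samples because deviations from the genotype mean correlated by 0.336, 0.729 and 0.535 between libraries with the same number, all over 0.1; the pairing comes from the data, and wild type 1 also correlated by 0.354 with null 3. Blocked values are given where they change a call.

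All 34 genes are accounted for; other pathway genes are named where called in either edgeR fit or among the 3 highest in FPKM of their list, and neighbours where tested within 1 Mb. The genes and lists were chosen with earlier results of these data known.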

Additional observations from a re-analysis of the deposited data

How the results depend on the processing

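Over all genes, 22 were called without a replicate block and with RLE or upper-quartile scaling, 597 with the replicate block, 65 without an expression filter, 89 by DESeq2, 158 by DESeq2 with the block, and 38 and 36 by limma on log2(FPKM + 0.1) and log2(FPKM + 1). Leaving out 1 library gave 2 (wild type replicate 1) to 34 (null replicate 2), and leaving out replicate 1, 2 or 3 with the block gave 1193, 126 and 219. Of the 34 genes, 0 were called without the block, with either other scaling, by limma or without any 1 library. The paired fit with the block called 4, and DESeq2, DESeq2 with the block and the unfiltered edgeR fit called 1 each, which was Pdk1. With the block, 7 were called without replicate 1 and 1 without replicate 2 or 3. The Pdk1 log2 fold change was 1.59 in the reported fit and passed with the block (1.60), without a filter (1.59), by DESeq2 (1.60) and by DESeq2 with the block (1.63). It was 0.66 on log2(FPKM + 1), a scale that compresses low levels, 1.43 to 1.94 without 1 library and 1.40, 1.61 and 1.80 with the block and replicate 1, 2 or 3 left out. Of the other 33 genes, 14 kept their sign in all 17 alternatives, and 54 of 561 values had the other sign, none of them called. Low counts limit Pdk1 (34 to 151 a library) and Pdk4.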
